A study of Mus musculus with 24 samples.

Results

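The 8 genes described here are Ly6d, Ly6e, Ly6h, Ly6k, Lynx1, Gml, Slurp1 and Lypd2, members of the Ly6 gene cluster of mouse chromosome 15 that lie near Cyp11b2, the locus that carries the Cre recombinase in these mice. The list goes by gene symbol and was drawn up with earlier results of these data known. It leaves out other genes of the cluster, such as Ly6m and Ly6c1. Each of the 8 is represented by the probe set with the highest mean over the arrays. They are 8 of 21957 genes on the array with a probe set of a single symbol. Of these, 14411 had a log2 signal over 5 in at least 4 arrays and were tested, and 6 of the 8 members were among them. Gml and Ly6h were over 5 in 1 array each and were too dim to test.

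Whole adrenal glands of mice aged 7 months, of mixed sv129-C57Bl/6 origin, were profiled on 24 arrays, 4 for each of 6 groups. Knockout (KO) females, intact males and gonadectomised (GDX) males were Prkar1a fl/fl;cre/+;mTmG/mTmG, where Prkar1a encodes a regulatory subunit of protein kinase A, Cre is expressed from the Cyp11b2 locus of zona glomerulosa cells, and mTmG is a fluorescent reporter of Cre activity. Control (WT) females were Prkar1a fl/+;cre/+;mTmG/mTmG, so they carried Cre as the KO females did. WT intact males had both Prkar1a alleles floxed and no Cre. WT GDX males had mixed genotypes. Array 1 carried no floxed allele and no Cre, arrays 2 and 3 carried Cre and no floxed allele, and array 4 carried Cre and 1 floxed allele; array 2 was mTmG/+ and the others mTmG/mTmG. GDX males were without testes for the last 2 months. The labels call the arrays of a group biological replicates.

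Ly6 proteins are small, with a three-finger fold held by disulfide bonds, and most are tethered to the outer cell membrane by a glycosylphosphatidylinositol anchor. Lynx1, Ly6h and the secreted Slurp1 are known as modulators of nicotinic acetylcholine receptors, which in the adrenal gland receive the nerve signal that makes chromaffin cells release catecholamines. Ly6d is a surface marker of lymphoid progenitors and of keratinocytes, Ly6e is an interferon-induced protein of many cell types, and Ly6k is best known from the testis. Because they share a neighbourhood with the Cre insertion, their levels can be read both by genotype and by the Cre label.

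RMA signals on a log2 scale, as deposited, are given throughout; a difference of 1 is a 2-fold difference in signal. Array medians lay between 5.20 and 5.29. The targeted gene Prkar1a averaged 8.51 to 8.82 over the WT groups and 7.08 to 7.89 over the KO groups. It changed by -1.43 ± 0.23 in KO females and -1.19 ± 0.23 in KO GDX males, both called. In KO intact males it changed by -0.92 ± 0.23, which was not called (limma, adjusted p = 0.16). The KO intact male arrays read 6.89, 8.08, 8.47 and 8.13, without overlap with WT. Cyp11b1, the defining enzyme of the zona fasciculata, lay between 12.73 and 12.92 in all arrays.

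Ly6d was the member with the widest range over the groups. It was high in all WT groups and in KO intact males, and low in KO females and KO GDX males. In WT females the 4 arrays read 8.92, 9.24, 9.03 and 9.13, and in KO females 8.03, 6.95, 6.65 and 5.90. The groups did not overlap (as for 32.8% of all genes), and KO female array 1 lay closest to the controls. In WT GDX males the arrays read 8.11, 9.41, 9.07 and 8.42, and in KO GDX males 6.76, 6.62, 6.38 and 5.59. Here too every KO array was under every control array, and 9.62% of all genes showed no overlap in this comparison. In WT intact males the arrays read 7.80, 9.49, 9.49 and 9.28, and in KO intact males 8.48, 10.03, 8.91 and 8.23. These ranges overlapped, and WT male array 1 was the lowest of the 8.

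In females Ly6d was 9.08 ± 0.14 (mean ± SD) in WT and 6.88 ± 0.88 in KO glands, a change of -2.20 ± 0.44 (n = 4, log2 ± SE, limma, adjusted p = 0.000603), or a 4.58-fold lower signal. In GDX males it was 8.75 ± 0.59 and 6.34 ± 0.52, a change of -2.41 ± 0.44 (limma, adjusted p = 0.00356). In intact males it was 9.01 ± 0.81 and 8.92 ± 0.80, a difference of -0.10 ± 0.44 with a 95% interval from -1.01 to 0.81. A fall of the size seen in females lies outside that interval. Prkar1a itself changed least in intact males (-0.92 ± 0.23, not called). Its changes in females and intact males did not differ by the test (-0.50 ± 0.32, limma, adjusted p = 0.305). Whether the size of the Prkar1a change bears on Ly6d was not tested. The difference between the Ly6d effects in females and in intact males was -2.10 ± 0.62 (limma, adjusted p = 0.0256). Without KO female array 4, WT male array 1 or KO male array 2 that adjusted p was 0.0619, 0.0617 and 0.0594, and with the chromaffin or adipocyte marker mean in the model the difference was -1.50 (adjusted p = 0.385) or -1.73 (adjusted p = 0.0727). The difference between GDX and intact males, -2.32 ± 0.62, did not pass (limma, adjusted p = 0.212), and 0 of 6 members and 4 genes in all (0.0278%) did. KO females and KO GDX males did not differ by the test (0.54 ± 0.44, limma, adjusted p = 0.426).

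Among the 6 tested members, Ly6d and Ly6e were lower in KO than in WT females, where 32.6% of all genes were called and 18.7% were called lower. In GDX males Ly6d was the only one of the 6 called, where 4.23% of all genes were called and 1.97% were called lower. In intact males 0 of 6 were called with limma, against 0.111% of all genes. By unadjusted p under 0.05 (limma) 1 member, Ly6e, passed, as did 1080 of all 14411 genes.

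Cell type markers moved in both directions in the comparisons where Ly6d fell. Over all genes 32.6% were called in KO females (18.7% lower) and 4.23% in KO GDX males (1.97% lower). Of 9 zona glomerulosa markers, 8 were called lower in KO females, 2 in KO GDX males and 0 in KO intact males. Their mean level lay between 9.18 and 9.53 in WT females, 7.52 and 7.90 in KO females, 9.13 and 9.39 in WT GDX males, and 8.20 and 9.21 in KO GDX males. In KO females 10 of 13 chromaffin markers, 6 of 9 adipocyte markers and 8 of 9 markers of capsule and mesenchyme were also lower; in KO GDX males the counts were 0, 0 and 1. Gonadal-like markers were lower in KO females in 5 of 6 cases and in 0 of 6 in KO GDX males. Higher in KO females were 4 of 8 macrophage markers, 4 of 7 zona fasciculata markers and 4 of 6 markers of the steroidogenic cortex; in KO GDX males these counts were 0, 2 and 1. The part of these cell types in the change of Ly6d was not tested. Chromaffin and adipocyte marker means were tried as covariates, but neither overlapped between WT and KO females. The chromaffin mean lay between 9.23 and 9.59 in WT and 8.61 and 9.12 in KO females. For adipocyte markers these ranges were 8.30 to 9.98 and 7.26 to 7.82. Such a covariate cannot be told apart from genotype. With the chromaffin marker mean in the model the change in females was -1.80 (limma, adjusted p = 0.031), and with the adipocyte mean it was -1.69 (limma, adjusted p = 0.023). In whole glands fewer cells of a type and less RNA per cell cannot be told apart. Ly6d is a known marker of lymphoid and epithelial cells. Of 8 lymphocyte markers on the array, Cd79a, Ms4a1, Pax5 and Cd2 were at or under 5 in all 24 arrays and 2 were tested. The mean of those 2 lay between 5.72 and 6.05 in WT females, 5.38 and 6.85 in KO females, 5.88 and 6.56 in WT GDX males, and 5.56 and 6.29 in KO GDX males, and 0 were called in the KO comparisons. Of 8 keratinocyte and epithelial markers, Krt14, Epcam and Trp63 were at or under 5 in all arrays and 4 were tested, with group means of the list from 5.66 to 5.78. Krt18, a keratin of simple epithelia, was called higher in KO females (0.36 ± 0.10, limma, adjusted p = 0.00722).

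**Figure D1:**
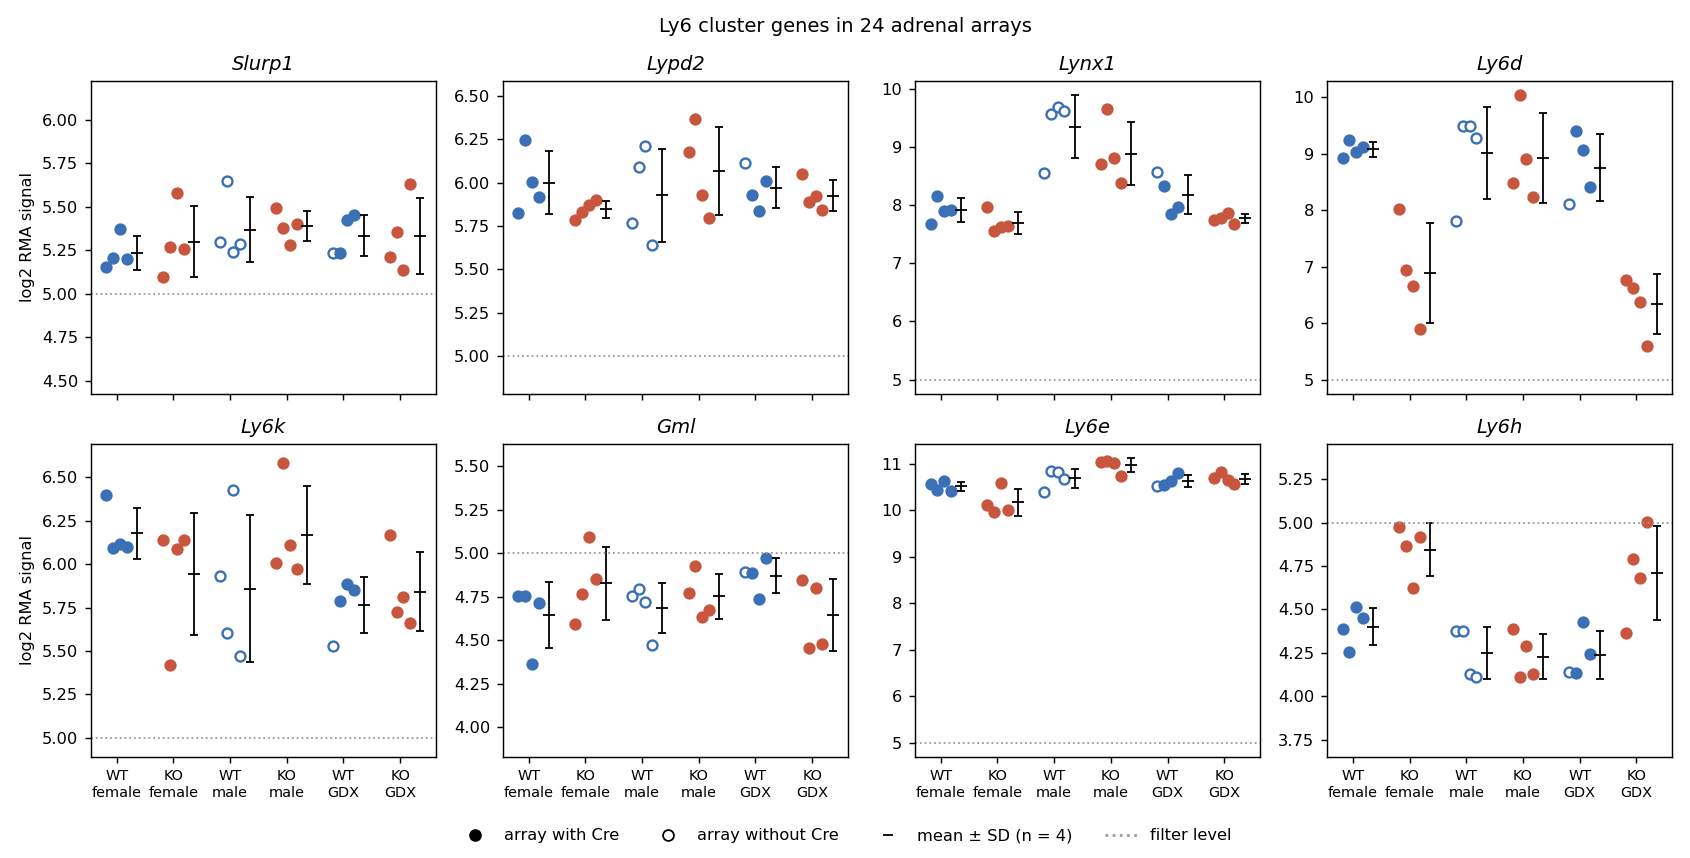
Log2 RMA signal of each of the 8 genes (y axis) in the 6 groups (x axis), 1 point per array with the group mean. Ly6d is low in KO females and KO GDX males, Lynx1 is high in both groups of intact males, and Gml and Ly6h stay near or under 5.

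Lynx1 differed by sex and gonadal state more than by genotype. It was highest in intact males of both genotypes and lower in females and in GDX males. In intact males the arrays read 8.55, 9.57, 9.68 and 9.61 in WT and 8.70, 9.65, 8.81 and 8.38 in KO glands. WT male array 1 stood about 1 unit under the other 3 WT arrays. In females they read 7.67, 8.16, 7.90 and 7.91 in WT and 7.96, 7.55, 7.62 and 7.64 in KO glands. Every female array was under every intact male array of its genotype, which held for other genes as well: 15.1% of all genes in WT and 36.6% in KO glands did not overlap between the sexes. In GDX males they read 8.57, 8.34, 7.84 and 7.97 in WT and 7.75, 7.78, 7.87 and 7.68 in KO glands. WT GDX array 1, the one without Cre, reached the lowest intact male, and the KO GDX arrays lay within the female range.

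WT females were lower than WT intact males by -1.44 ± 0.24 (limma, adjusted p = 0.000431), where 1 of 6 members was called, against 7.75% of all genes (4.02% lower). KO females were lower than KO intact males by -1.19 ± 0.24 (limma, adjusted p = 0.000351), where 3 of 6 members were called, against 41.0% of all genes (23.1% lower). GDX males were lower than intact males by -1.17 ± 0.24 in WT (limma, adjusted p = 0.00648; 4.5% of all genes called, 2.55% lower) and by -1.12 ± 0.24 in KO glands (limma, adjusted p = 0.00313; 15.4% called, 8.59% lower). All these comparisons use the intact males of the genotype, so those of females and of GDX males share arrays. The WT groups also differed in Cre and floxed alleles, so sex and gonadectomy cannot be told apart from these alleles there. The KO groups shared 1 genotype. Females and GDX males differed by -0.27 ± 0.24 in WT and -0.08 ± 0.24 in KO glands, and neither passed. With only the compared groups in the fit, the WT gonadectomy difference had an adjusted p of 0.0639, and 0.124 with the replicate number as a block.

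The KO and WT means of Lynx1 differed by -0.22 ± 0.24 among females, -0.46 ± 0.24 among intact and -0.41 ± 0.24 among GDX males, differences of which none passed (limma, adjusted p = 0.514, 0.696 and 0.359). Their 95% intervals reached from -0.71 to 0.27, -0.95 to 0.03 and -0.90 to 0.08. KO females had lower chromaffin marker signals than KO intact males, with 12 of 13 markers called lower, against 23.1% of all genes. The list mean was 8.61 to 9.12 in KO females and 9.66 to 9.94 in KO intact males. With that mean in the model, the sex difference of Lynx1 in KO glands was -0.42 (limma, adjusted p = 0.583), that of Ly6d -1.31 (adjusted p = 0.365) and that of Ly6e -0.55 (adjusted p = 0.126). The mean did not overlap between these groups, so in this fit it cannot be told apart from sex. Whether chromaffin content bears on these differences was not tested. In WT glands 0 of 13 chromaffin markers were called between the sexes. Markers of the X-zone, the inner cortical layer that persists in females, differed where Lynx1 did in both genotypes, most in the opposite direction. Of 4 tested, 3 were higher and 1 was lower in females than in intact males and in GDX than in intact males. Where Lynx1 was not called, 1 of 4 was higher in KO females, in KO intact males, and in KO females against KO GDX males. Over all genes 32.6%, 0.111% and 18.4% were called in these 3 comparisons. The mean level of the X-zone markers lay between 5.94 and 6.32 in WT intact males, 8.14 and 8.99 in WT females, and 8.47 and 9.21 in WT GDX males. In KO glands it lay between 6.76 and 8.19 in intact males, 8.84 and 9.53 in females, and 8.57 and 8.98 in GDX males. Their part in the Lynx1 differences was not tested.

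**Figure D2:**
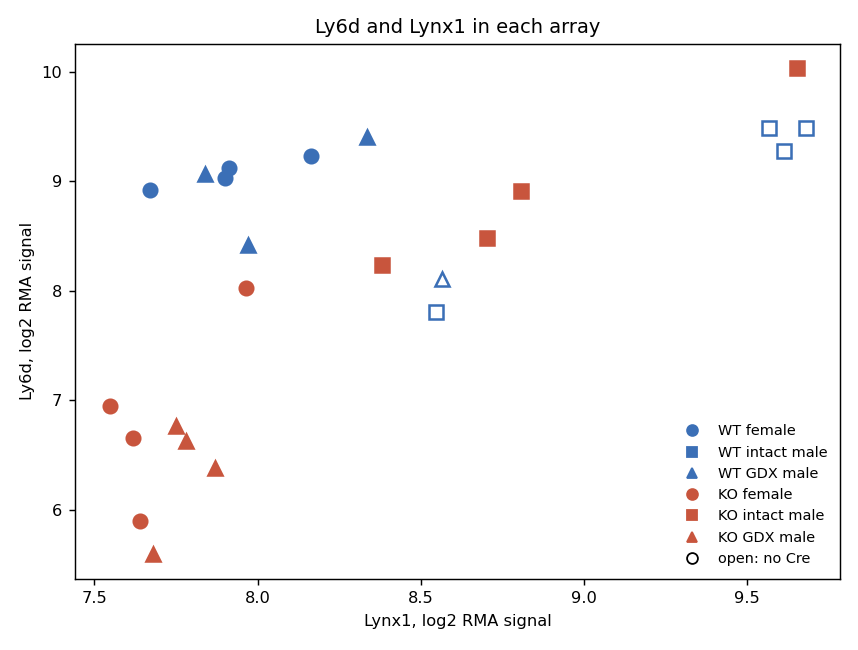
Log2 RMA signal of Lynx1 (x axis) against Ly6d (y axis), 1 point per array; colours give the genotype, shapes the sex and gonadal state, and open symbols mark arrays without Cre. KO females and KO GDX males sit low on both axes, WT females and most WT GDX males are low in Lynx1 only, and intact males lie to the right.

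Ly6e lay between 9.97 and 11.07 in all arrays, with group means 0.80 apart at most. In WT females the arrays read 10.58, 10.45, 10.63 and 10.42, and in KO females 10.11, 9.97, 10.58 and 10.01. KO female array 3 lay among the controls while the other 3 were lower. In intact males they read 10.40, 10.85, 10.83 and 10.68 in WT and 11.05, 11.07, 11.02 and 10.75 in KO glands, and in GDX males 10.53, 10.55, 10.63 and 10.82 against 10.69, 10.83, 10.65 and 10.57. The male ranges overlapped in both cases.

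The change of Ly6e in KO females was -0.35 ± 0.12 (limma, adjusted p = 0.028). It did not hold when WT female array 1 or 3, or KO female array 1, 2 or 4, was left out (adjusted p from 0.0633 to 0.1), nor with either marker mean in the model (chromaffin -0.21, adipocyte -0.23). In intact males the difference was 0.28 ± 0.12 (limma, adjusted p = 0.596) and in GDX males 0.05 ± 0.12. The effects in females and GDX males did not differ by the test for any of the 6 members, with 3.31% of all genes called; without KO female array 3 that difference for Ly6e was -0.54 (limma, adjusted p = 0.0315). The effects in females and intact males differed by -0.63 ± 0.17 (limma, adjusted p = 0.0146), where 2 of 6 members and 16.0% of all genes were called (8.78% lower); with the chromaffin mean it was -0.42 (adjusted p = 0.354). Among KO glands Ly6e was lower in females than in intact males by -0.80 ± 0.12 (limma, adjusted p = 1.67e-05) and than in GDX males by -0.52 ± 0.12 (limma, adjusted p = 0.00459; 18.4% of all genes called, 9.71% lower). The second of these had an adjusted p of 0.264 with the chromaffin and 0.0596 with the adipocyte mean. WT females and WT intact males differed by -0.17 ± 0.12, which did not pass.

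Slurp1, Lypd2 and Ly6k stayed near the lower end of the tested range and none was called in any comparison with all arrays in the fit. Slurp1, whose human counterpart is mutated in a palmoplantar skin disease, lay between 5.10 and 5.65 in all 24 arrays, with group means 0.16 apart at most. Lypd2 lay between 5.64 and 6.37, with group means within 0.22. Ly6k lay between 5.42 and 6.58, and its group means ran from 5.76 in WT GDX males to 6.18 in WT females. WT females and WT GDX males did not overlap in Ly6k, with 6.09 to 6.40 against 5.53 to 5.88, a difference of 0.41 ± 0.19 (limma, adjusted p = 0.398) in a comparison where 7.6% of all genes did not overlap and 0.902% were called. A second probe set of Ly6k lay between 4.05 and 4.63.

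Gml lay between 4.36 and 5.10, with group means within 0.23. Ly6h, a brain protein of the nicotinic modulator group, lay between 4.11 and 5.01. Its arrays read 4.39, 4.26, 4.51 and 4.45 in WT females and 4.97, 4.86, 4.62 and 4.92 in KO females. In GDX males they read 4.14, 4.14, 4.43 and 4.24 in WT and 4.36, 4.79, 4.68 and 5.01 in KO glands. The KO female arrays lay above the WT female arrays, in a comparison where 32.8% of tested genes did not overlap. The GDX ranges overlapped. With no filter on low values, limma called Ly6h higher in KO females (0.44, adjusted p = 0.00687) and in KO GDX males (0.47, adjusted p = 0.0291). With the filter, 32.6% and 4.23% of tested genes were called in these comparisons. The Ly6h values are near the floor of the array and the size of the differences is uncertain.

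**Figure D3:**
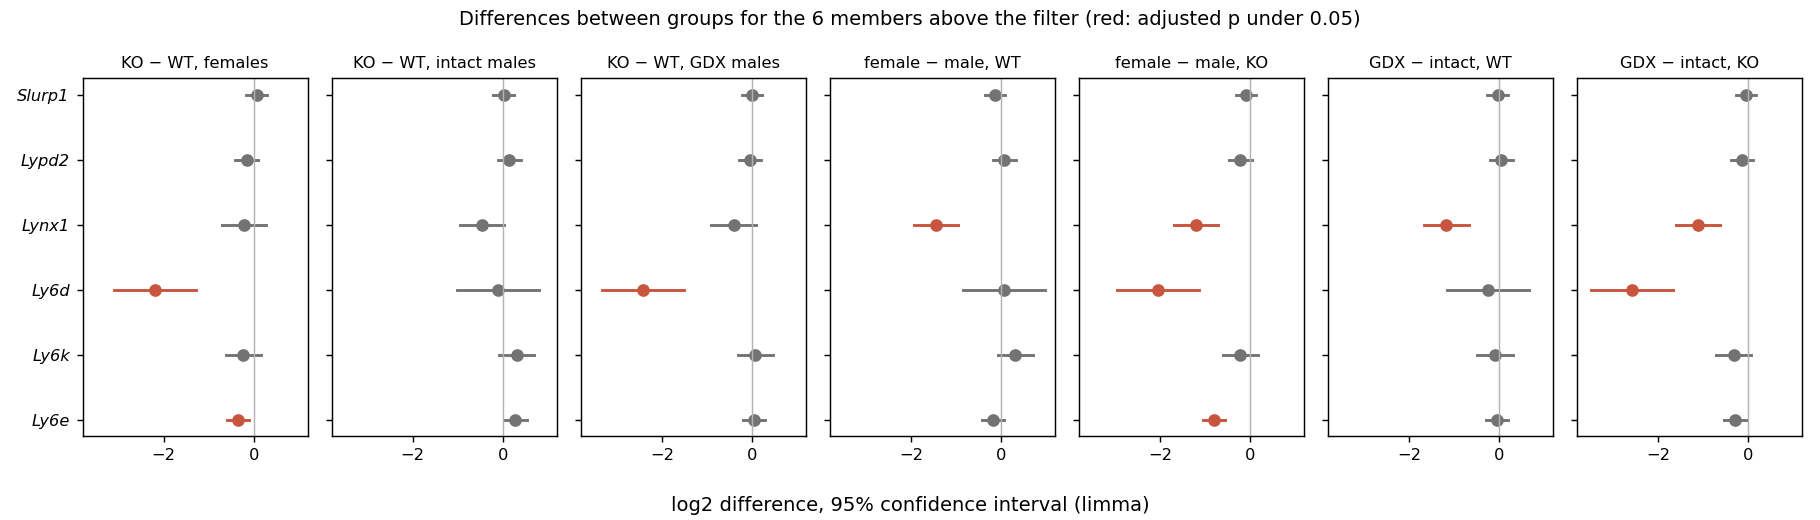
Differences between groups on the log2 scale (x axis) for the 6 tested genes (y axis) in 7 comparisons, as limma estimates with 95% confidence intervals; red marks an adjusted p under 0.05. Ly6d is lower in KO females and KO GDX males, and Lynx1 in females and GDX males against intact males of either genotype.

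The Cre label could be compared directly only among WT GDX males, with 3 arrays with Cre and 1 without. Ly6d was 8.97 ± 0.50 (n = 3) with Cre and 8.11 without, a difference of 0.85 ± 0.71 with a 95% interval from -0.62 to 2.33. Lynx1 was 8.05 ± 0.26 with Cre and 8.57 without, a difference of -0.52 ± 0.38 with an interval from -1.30 to 0.27. By limma 0 of 6 members were called, none had an unadjusted p under 0.05, and 0.0139% of all genes were called. With 1 array without Cre, the error of this comparison comes from the spread within the other groups, and that array is assumed to vary as they do. Of genes near the insertion, Cyp11b2 itself differed by -1.21 ± 0.54 and Ly6c1 by 0.83 ± 0.36. Both differences rest on 1 array without Cre. Ly6c1 was also near the floor, at 5.16 with Cre and 4.33 without, and over 5 in only 8 of 24 arrays. The array without Cre lay outside the range of the other 3 for 6 of 6 members, as it did for 52.2% of all genes.

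Over all WT arrays, Lynx1 lay between 7.67 and 8.34 in the 7 with Cre and between 8.55 and 9.68 in the 5 without, with no overlap, against 3.16% of all genes. All WT intact males lack Cre and all WT females carry it, so Cre, sex and the number of floxed alleles cannot be told apart in that split. KO intact males carry Cre and read 8.38 to 9.65, and among KO glands, which share 1 genotype, Lynx1 was lower in females and in GDX males. Ly6d overlapped in the split, with 8.42 to 9.41 with Cre and 7.80 to 9.49 without. The fall of Ly6d in females was measured between mice that all carried Cre. In GDX males it was -2.63 (limma, adjusted p = 0.00334) when only the 3 WT arrays with Cre were used as controls. In intact males Cre and the loss of Prkar1a cannot be told apart.

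Ly6d and Lynx1 are direct neighbours among the tested genes, with different patterns over the groups. The order by RefSeq (GRCm38.p6) runs Slurp1, Lypd2, Lynx1, Ly6d, Ly6k and Gml on one side of Cyp11b2, with Cyp11b1 between, and Ly6e and Ly6h on the other. Of the 10 nearest tested genes on each side, 1 was higher and 2 were lower in KO females, 2 were higher and 1 lower in KO GDX males, and 0 were called in intact males. Over all genes 32.6%, 4.23% and 0.111% were called in these comparisons. The lower ones were Ly6d and Ly6e. Top1mt, the mitochondrial topoisomerase, was higher in KO females (1.14 ± 0.15, limma, adjusted p = 9.53e-06) and in KO GDX males (0.72 ± 0.15, adjusted p = 0.00978). Cyp11b2 itself changed by -2.30 ± 0.36 in KO females (limma, adjusted p = 5.11e-05) but by -0.27 ± 0.36 in KO GDX males, where it was not called and Ly6d was. Cyp11b1, which lies between Cyp11b2 and Ly6k, was not called in either. Them6 shared the direction of Lynx1, with -0.66 ± 0.14 in WT females against intact males (limma, adjusted p = 0.00401) and -0.67 ± 0.14 in WT GDX males (adjusted p = 0.00789).

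**Figure D4:**
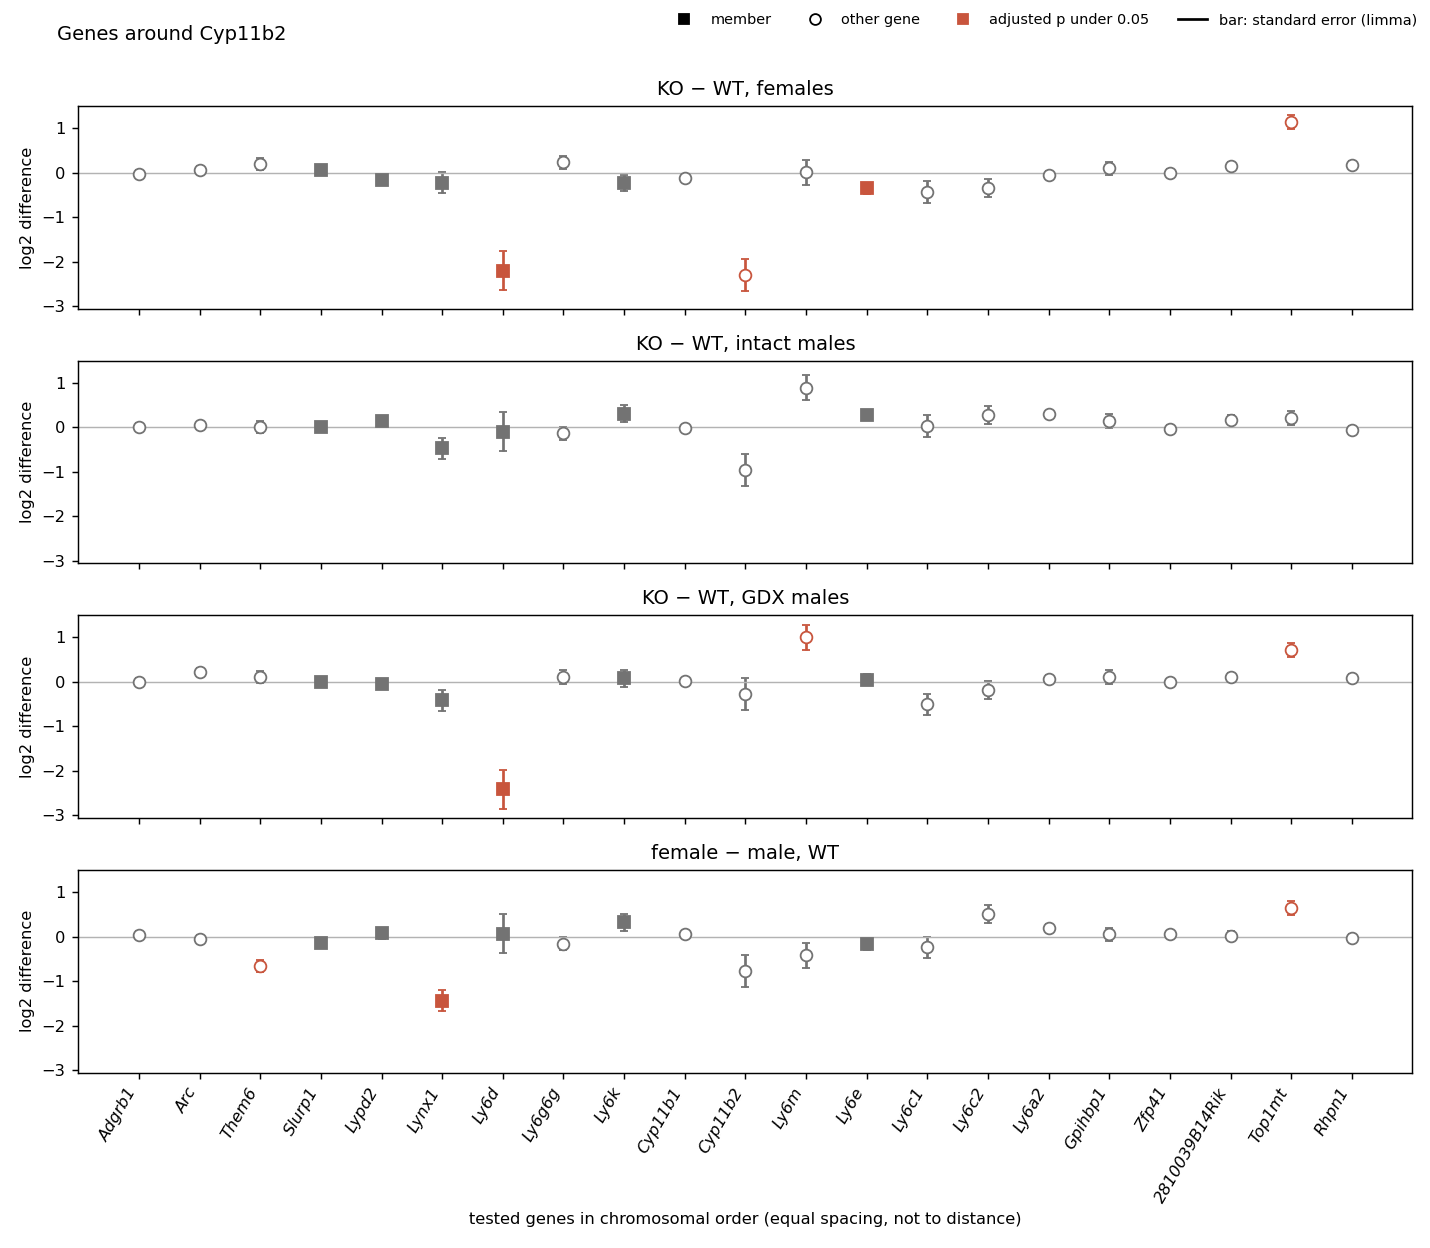
Log2 differences (y axis, limma estimate with standard error) for tested genes in chromosomal order around Cyp11b2 (x axis, equal spacing), in 4 comparisons; squares are members and red marks an adjusted p under 0.05. Ly6d is called lower in KO females and KO GDX males while its neighbours Lynx1 and Ly6k are not, and Lynx1 and Them6 are called lower in WT females against WT intact males.

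Of 14 other genes of the cluster 10 matched the array and 4 were tested, Ly6m, Ly6c1, Ly6c2 and Gpihbp1, the last of which carries lipoprotein lipase across capillary walls. Only Ly6m was called in a KO comparison, 1.01 ± 0.28 higher in GDX males (limma, adjusted p = 0.0437), where 4.23% of all genes were called. Psca, Slurp2, Ly6f, Ly6g, Ly6g2 and Ly6i were at or under 5 in all arrays. Of 12 tested family genes on other chromosomes, 2 were higher and 2 lower in KO females, a share near the 32.6% called over all genes, and 0 were called in intact or GDX males. Lypd6 was higher by 1.18 ± 0.24 (limma, adjusted p = 0.000666), and Cd59a, an inhibitor of complement on the cell surface, was lower by -0.70 (adjusted p = 0.00404).

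Nicotinic receptor subunits, the targets of Lynx1-like proteins, were lower in KO females as chromaffin markers were. Of 7 tested, 5 were lower in KO females, where 18.7% of all genes were called lower, and 0 in KO intact or GDX males. Chrna3 and Chrnb4, which form the ganglionic receptor of chromaffin cells, changed by -1.03 (limma, adjusted p = 0.00163) and -0.81 (adjusted p = 0.00445). Between WT females and WT intact males, where Lynx1 differed, 0 of 7 subunits were called. Between KO females and KO intact males, where Lynx1 also differed, 5 of 7 were lower, against 23.1% of all genes. Between KO females and KO GDX males, where Lynx1 did not differ by the test, 5 of 7 were lower, against 9.71%. Gonadectomy, with which Lynx1 was lower in both genotypes, gave 0 called in WT and 1 lower in KO glands.

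The genes most like each member were ranked by Pearson's r over the 24 arrays, as a description without a test, since arrays of a group share their condition. For Ly6d the closest was Hsd3b6, a hydroxysteroid dehydrogenase that is among the zona glomerulosa markers above, with r = 0.899, and 0.593 after the group means were removed. Hsd3b6 changed by -3.48 ± 0.60 in KO females and by -2.62 ± 0.60 in KO GDX males; the intact male value was -0.65 ± 0.60. For Lynx1 it was Acan, the proteoglycan aggrecan, with r = 0.894 and 0.784 within groups. Acan averaged 7.01 in WT and 7.43 in KO intact males. It averaged 4.21 to 4.54 in the female and GDX groups, under the floor of 5, so the size of its difference is uncertain. For Ly6e it was Amotl1, an angiomotin family protein, with r = 0.916 and 0.856 within groups.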

How the data were processed

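The values are log2 RMA signals of Affymetrix mouse gene arrays as deposited by the authors; the submitters' processing notes name RMA. The program behind it, its version and the build of the probe annotation are not stated there. No scan batches were used. RMA had thus already corrected background, normalized and summarised probes, and compresses large folds.

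Of 32202 probe sets, 22943 carried a single symbol, 1731 several and 7528 none; only the first kind was used. Each gene took its probe set with the highest mean (828 genes had more than 1). Genes over 5 (log2) in at least 4 arrays were kept. limma 3.58.1 (R 4.3.3) fitted 6 group means over 24 arrays (lmFit, eBayes; 18 residual and 3.41 prior degrees of freedom), with Benjamini-Hochberg adjustment over 14411 genes and a threshold of 0.05. The Cre test split the WT GDX mean by Cre. The number of arrays limits the precision. The fit was tested on simulated data. Named genes are the members, tested neighbours and family lists that passed, and for Ly6d, Lynx1 and Ly6e the genes of highest correlation. The members and lists were chosen with earlier results of these data known. Same-numbered KO and WT GDX arrays deviated together (r from 0.12 to 0.24 in 4 of 4). So did same-numbered WT GDX and WT intact male arrays (r from 0.09 to 0.24). These pairings were seen in the data and are not stated in the labels. Alternatives were other filters, probe set means, another normalization, another variance model, the replicate block, marker means as covariates, fewer groups, WT GDX males with Cre only, and leaving out each array.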

Additional observations from a re-analysis of the deposited data

Results flagged for a closer look

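Of 48 gene and group combinations of 4 arrays, 6 held an array standing apart from the other 3 by Dixon's test, which chance alone gives in about 1 in 20. In WT intact males these were array 1 for Ly6d (7.80) and for Lynx1 (8.55), both lowest, and array 2 for Slurp1 (5.65), the highest. In WT females they were array 1 for Ly6k (6.40, the highest) and array 3 for Gml (4.36, the lowest), and in KO females array 2 for Ly6k (5.42, the lowest).

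The KO effect differed between females and intact males for Ly6d (-2.10, limma, adjusted p = 0.0256) and for Ly6e (-0.63, limma, adjusted p = 0.0146).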

How the results depend on the processing

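Of 1489 member differences recomputed under the alternatives, 1459 kept their direction and side of the threshold or moved by less than the spread between arrays, 21 lost their call, 6 gained one, 3 moved by more and 0 called differences reversed. The sign turned in 65 that were not called. The fall of Ly6d in KO females and in KO GDX males was called under each alternative run, with -2.58 to -1.87 and -2.63 to -2.16 when single arrays were left out.

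The count of members called fell from 2 to 1 in KO females with the chromaffin mean, the adipocyte mean or only the compared groups (1 to 2 with single arrays left out). It rose from 1 to 2 in KO GDX males with no filter. With the chromaffin mean it fell to 0 for KO females against KO intact males (from 3) and against KO GDX males (from 1), and to 0 for the interaction of KO with sex (from 2). With the adipocyte mean the counts for KO females against KO GDX males and for that interaction were 0 and 1. The interaction gave 1 to 2 with single arrays left out, and that between females and GDX males 0 to 1. For GDX against intact WT males the count was 0 with only those groups, with or without the block. With the replicate block over all arrays Ly6d in GDX males stayed at -2.41 (limma, adjusted p = 0.00258) and no other member call changed. The block confined to the compared groups was chosen after seeing the data. The chromaffin mean itself did not overlap between KO females and WT females, KO intact males or KO GDX males. It cannot be told apart from the compared groups there. The causes were not tested.

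Over all genes, the chromaffin mean gave 777 calls against 5906 for KO females against KO intact males, 357 against 2656 for KO females against KO GDX males, 2349 against 4694 in KO females, 970 against 2225 for gonadectomy in KO, and 206 against 2302 and 56 against 477 for the interactions of females with intact and with GDX males. Only the compared groups gave 49 against 609 in KO GDX males (118 with the block), 149 against 648 for gonadectomy in WT (82 with the block), 1747 against 2656 for KO females against KO GDX males, 78 against 130 for WT females against WT GDX males and 0 against 16 in KO intact males. With single arrays left out the count ran from 214 to 1180 in KO GDX males, 292 to 788 for gonadectomy in WT and 4 to 24 in KO intact males. Signals near 5, as for Slurp1, Gml and Ly6h, limit what can be read for those genes.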
